A study of Mus musculus with 6 samples.

Results

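Transglutaminases join proteins by a bond between a glutamine and a lysine side chain, and 5 genes of this family are described here, Tgm2, Tgm1, Tgm3, Tgm5 and F13a1, out of 21720 gene symbols in the expression table. They were taken by symbol and not by a threshold, but after values of the same comparison had been seen. Their difference between the groups is therefore given as a description without a test. The tumours were subcutaneous growths of H22, a mouse hepatocellular carcinoma line, in female BALB/c mice aged 6 to 8 weeks and labelled wild type. The control group received 0.5% carboxymethyl cellulose sodium and the luteolin group 200 mg/kg luteolin, a plant flavonoid, whose vehicle the labels do not name. Both were given by gavage once a day in 0.2 mL for 21 days, starting at a tumour volume of about 50 mm3. Each group gave 3 RNA-seq libraries. Neither the labels nor the methods say which animal each came from, so an SD or a p value measures the spread between these libraries only.

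Tgm2, tissue transglutaminase, is found in endothelium, smooth muscle, fibroblasts and macrophages, acts inside and outside the cell, and is a classical target of retinoic acid. Tgm1, Tgm3 and Tgm5 build the cornified envelope, the cross-linked protein shell of the upper epidermis, and Tgm3 also serves the hair follicle. F13a1 encodes the A subunit of coagulation factor XIII, which cross-links fibrin and is made by monocytes, tissue macrophages and megakaryocytes.

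Library totals ranged from 61081637 to 80442954 estimated counts, and between 15579 and 16767 genes had a value above 0. Values per library are CPM, the estimated counts scaled to a common library total after TMM normalization. Of the low values, from 1 to 40, 70.3% fell on a multiple of 4 or 1 above it (50% if spread evenly), as if 1 read pair counted as 4 units. A count of 0 was therefore taken to allow up to 12 units (3 read pairs), or 0.144 to 0.196 CPM, and this limit covers counting error only. Luteolin replicate 2 stood apart by its epidermal genes. The summed level of 13 keratinocyte genes was 19.1 to 21.0 CPM in the control libraries and 346, 7320 and 24.8 CPM in luteolin replicates 1, 2 and 3. Of the liver and hepatoma genes checked against the labelled cell type, Afp was present in every library (32.7 to 66.7 CPM), Hnf4a was at most 0.327 CPM, and Alb ranged from 0.868 to 133 CPM, the last 2 chosen after their values were seen. The other most abundant genes of the list, Krt18 and Trf, had 193 to 266 and 122 to 347 CPM.

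The 150 bases before the RefSeq start (GRCm38.p6) of the 3 epidermal genes are shown because these genes were high in the same library. Capitals mark matches to 6 motifs searched on both strands, the TATA box as TATAAA, the CCAAT box, the AP-1 site as TGANTCA, the GC box as GGGCGG, the AP-2 site as GCCNNNGGC and the nuclear receptor motif as AGGTCA.
Tgm1, chr14:55713493-55713642, minus strand, the first of 2 entries: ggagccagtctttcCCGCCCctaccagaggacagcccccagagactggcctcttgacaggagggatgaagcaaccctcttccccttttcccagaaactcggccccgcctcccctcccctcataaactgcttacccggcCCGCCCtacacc
Tgm3, chr2:130012190-130012339, plus strand: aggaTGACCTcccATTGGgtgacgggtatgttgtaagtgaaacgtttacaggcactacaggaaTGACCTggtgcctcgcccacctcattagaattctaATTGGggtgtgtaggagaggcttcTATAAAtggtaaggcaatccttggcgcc
Tgm5, chr2:121085842-121085991, minus strand: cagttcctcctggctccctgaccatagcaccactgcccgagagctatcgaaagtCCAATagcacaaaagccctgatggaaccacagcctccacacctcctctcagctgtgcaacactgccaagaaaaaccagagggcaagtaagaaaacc

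In Tgm1 the capitals are GC boxes read on the other strand, a motif held by 35.7% of 32851 promoter windows of 300 bases. Tgm3 alone of these holds a TATA box (position -28 from the start), a motif of 13.6% of all windows. It also holds CCAAT boxes and AGGTCA on the other strand, the latter held by 16.3% of all windows. Outside the bases shown, the windows of 300 bases of Tgm1 hold both motifs too. They are AGGTCA on the other strand (position -182) and, in the second entry, a CCAAT box (position -174). Tgm5 has 1 CCAAT box, found in 37.4% of all windows. Neither TGANTCA nor GCCNNNGGC was found in any of the windows of Tgm1, Tgm3, Tgm5 and F13a1 while 7.81% and 16.6% of all windows hold them. Tgm2 has no entry in the promoter table. A match of letters is a description and shows no binding.

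Tgm2 (chromosome 2) was high in all 3 luteolin tumours and to nearly the same degree. In bulk tumours a change in the number of cells of a type and a change in RNA per cell cannot be told apart. This holds here and for every gene that follows. The level of Tgm2 was 118, 82.5 and 92.8 CPM in the controls, in the order of replicates 1, 2 and 3. In the treated tumours, in the same order, it was 374, 421 and 361 CPM. The groups did not overlap, and the highest luteolin library was 1.17 times the lowest. The means were 385 ± 31.8 CPM in the luteolin group and 97.7 ± 18.2 CPM in the control group (SD, n = 3 each), and the fitted log2 fold change was 1.98 (standard error 0.18). Each luteolin library alone was 3.83, 4.31 and 3.69 times the control mean, again in that order. The log2 fold change was 1.93 without luteolin replicate 2 and between 1.85 and 2.11 with any 1 library left out. In 87.5% of the 14963 genes tested, the log2 range among the luteolin libraries was at least as large as that of Tgm2 (0.22, against a median of 0.68).

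**Figure D1:**
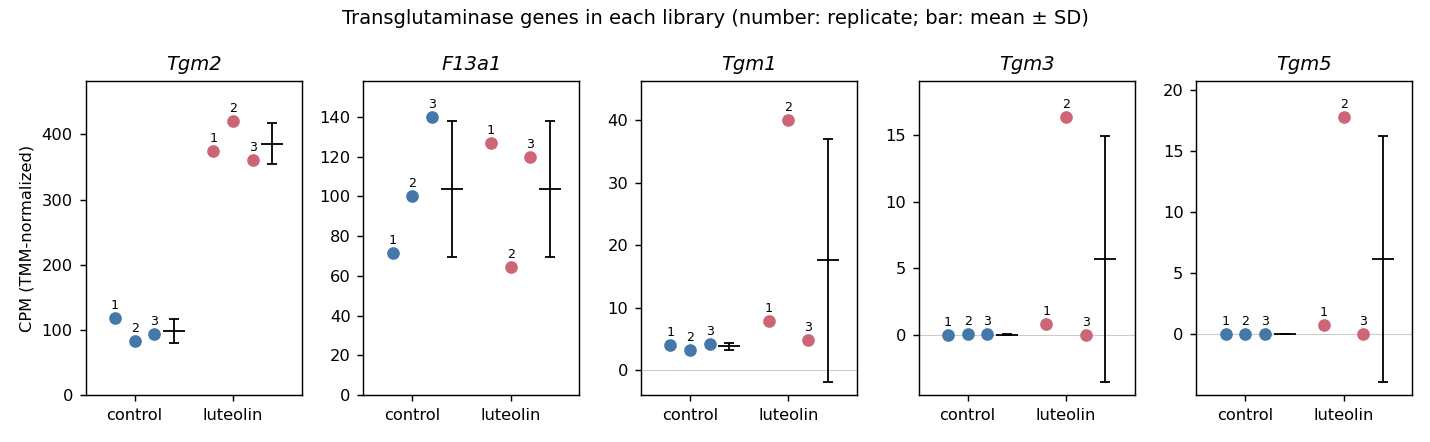
CPM of each transglutaminase gene in each library, 1 panel per gene with its own linear scale, control libraries in blue and luteolin libraries in red, each point numbered by replicate, with the group mean and SD (n = 3) as a bar beside the points. Tgm2 lies between 361 and 421 CPM in all luteolin libraries and between 82.5 and 118 CPM in the controls, whereas luteolin replicate 2 lies far above the other libraries for Tgm1, Tgm3 and Tgm5.

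Tgm1 (chromosome 14), the membrane-anchored transglutaminase of keratinocytes, was present at a low level in every library. Control replicates 1, 2 and 3 had 4.05, 3.27 and 4.17 CPM (283, 212 and 269 counts). Luteolin replicates 1, 2 and 3 had 7.98, 40 and 4.87 CPM (489, 3338 and 311 counts). Luteolin replicate 2 was far above the rest, and replicate 3 lay just above the highest control. Relative to the control mean the 3 luteolin libraries stood at 2.08, 10.4 and 1.27 times. The fitted log2 fold change was 2.20 (standard error 0.78), and it was 0.76 without luteolin replicate 2. A share of 5.93% of tested genes had a log2 range among the luteolin libraries as large as that of Tgm1 (3.03). Tgm1 and Tgm2 are the 2 of the 5 genes with every luteolin library above every control library. This holds for 15.9% of all tested genes, and nothing is read from the count, since the genes were chosen on this comparison.

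Tgm3 (chromosome 2), the transglutaminase of the upper epidermis and hair, had 0, 4 and 4 counts in the controls. The treated libraries had 51, 1366 and 0 counts, or 0.833, 16.3 and 0 CPM. Luteolin replicate 3 was therefore like the controls, all 4 of them at or under the limit of 12 units. In read pairs of 4 units, luteolin replicate 2 had 342 against 2 in the control libraries together, a ratio of 408 after scaling for library size (exact 95% counting interval 112 to 3380). Tgm5 (chromosome 2), also of the epidermis, was at 0 counts in every control library. With luteolin it reached 44 counts in replicate 1, 1487 in replicate 2 and 0 in replicate 3. Against the limit of 12 units per control library it was at least 3.97-fold higher in luteolin replicate 1 and at least 98.3-fold higher in replicate 2. Tgm3 and Tgm5 did not pass the filter on low counts, so 3 of the 5 genes have a fitted fold change.

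Tgm3 and Tgm5 kept a similar proportion to a basal keratin in the 2 libraries that hold them. For 1000 counts of Krt14, a keratin of basal keratinocytes, there were 5.31 counts of Tgm3 in luteolin replicate 1 (exact 95% interval 2.88 to 9.24) and 6.70 in replicate 2 (6.02 to 7.46). For Tgm5 the values were 4.58 (2.29 to 8.18) and 7.30 (6.58 to 8.08). The intervals overlap for both genes. They cover counting error only and leave out the spread between tumours, with 1 library behind each value. Luteolin replicate 3 had 277 counts of Krt14, and at the proportions of replicate 2 this would bring 1.86 units of Tgm3 and 2.02 of Tgm5, below what 1 read pair adds. Their absence from replicate 3 was thus not distinguishable from this proportion at this depth. The count of Tgm1 above its control mean was 26.5 per 1000 Krt14 counts in replicate 1 (20.6 to 33.9) and 14.8 in replicate 2 (13.8 to 15.9). These intervals do not overlap, but they treat the excess as if it had been counted directly. They leave out the counting error of the subtracted level and the spread of the control level. In replicate 3 the value was 239, from an excess of 66.1 units in a count of 311. Whether that small excess differs from 0 was not tested, so no interval is given for it.

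F13a1 (chromosome 13) had no common direction. The controls had 71.4, 100 and 140 CPM in the order of replicates 1, 2 and 3. The treated tumours had 127, 64.4 and 120 CPM. The groups overlapped over most of their range, and the lowest value belonged to luteolin replicate 2. The means were 104 ± 34.3 CPM in the control group and 104 ± 34.2 CPM in the luteolin group (SD, n = 3 each), with a fitted log2 fold change of -0.00128 (standard error 0.33). With any 1 library left out it lay between -0.22 and 0.27. The libraries of a group differed by up to 1.97-fold.

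The libraries with the lowest and the highest F13a1 were also the lowest and the highest for genes of like base composition. The longest annotated F13a1 transcript has 45.9% GC. The median deviation of the 2852 tested genes within 2 percentage points of that content was -0.14, 0.07 and 0.20 on the log2 scale in the controls (replicates 1, 2 and 3) and 0.03, -0.18 and 0.08 in the treated libraries. F13a1 itself deviated by -0.48, 0.01 and 0.49 and by 0.35, -0.63 and 0.26, a wider swing that was lowest in the same 2 libraries, and the part of base composition in this was not tested. With these medians subtracted, a step added after seeing the data, the difference between the group means of log2 CPM went from -0.01 to 0.06 for F13a1 and from 1.99 to 1.88 for Tgm2, which has 57.1% GC. For Tgm1 it went from 1.60 to 1.49.

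**Figure D2:**
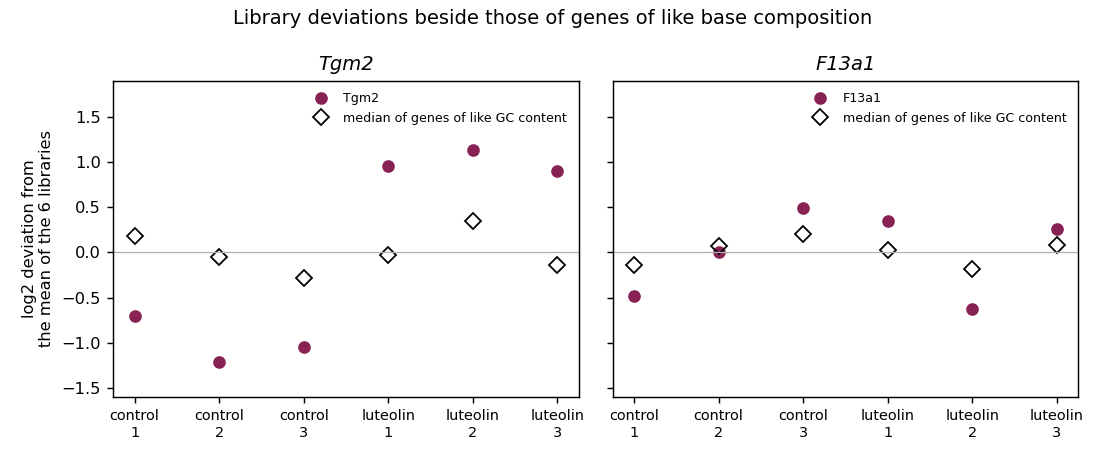
Log2 deviation of Tgm2 (left) and F13a1 (right) from the mean of the 6 libraries (filled circles), beside the median deviation of tested genes of like GC content (open diamonds), for each control and luteolin library. The medians stay within -0.28 and 0.35, and Tgm2 lies below them in all control libraries and above them in all luteolin libraries.

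Per kilobase of exon, which allows genes to be compared, Tgm2 and F13a1 led the family. In the control group Tgm2 had 27.2 ± 5.06 CPM per kilobase and F13a1 25.9 ± 8.56 (SD, n = 3 each), and their ranges overlapped. Tgm1 followed with 1.27 ± 0.162, clear of both neighbours in the order, and Tgm3 (0.00998) and Tgm5 (0) overlapped at the limit of detection. In the luteolin group Tgm2 had 107 ± 8.83 CPM per kilobase, above every library of F13a1 (25.9 ± 8.56). Tgm1 (5.85 ± 6.46), Tgm5 (2.36 ± 3.86) and Tgm3 (1.39 ± 2.23) overlapped one another.

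**Figure D3:**
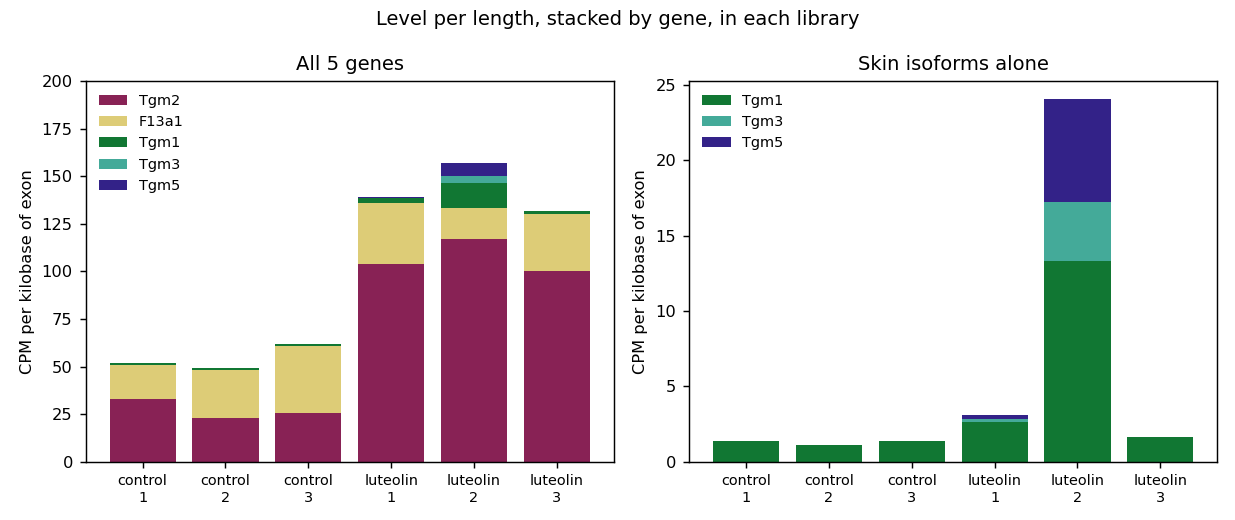
CPM per kilobase of exon in each library, stacked by gene, for all 5 genes (left) and for Tgm1, Tgm3 and Tgm5 alone (right, another scale). Tgm2 makes up 74.5% to 76.1% of the stack in the luteolin libraries, and the epidermal genes are visible as a large share in luteolin replicate 2 alone.

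The epidermal genes against Tgm2 separated luteolin replicate 2 from the other libraries. The summed level per kilobase of Tgm1, Tgm3 and Tgm5 was 4.11%, 4.81% and 5.43% of that of Tgm2 in the controls, in replicate order (counting intervals 3.21% to 5.22%, 3.59% to 6.31% and 4.18% to 6.90%). It was 3.01% in luteolin replicate 1 (exact 95% counting interval 2.54% to 3.55%), 20.5% in replicate 2 (19.4% to 21.7%) and 1.61% in replicate 3 (1.28% to 2.02%). Replicate 2 lay above all controls, and replicates 1 and 3 below them, although the interval of replicate 1 overlapped that of control replicate 1. In these 2 libraries Tgm1 itself was above all controls, and the denominator Tgm2 was higher too. Of the summed level of the 5 genes, Tgm2 held 63.1%, 46.7% and 41.5% in the control libraries and 74.9%, 74.5% and 76.1% in the luteolin libraries. The share of F13a1 was 34.3%, 51.1% and 56.2% in the control libraries and 22.9%, 10.2% and 22.7% in the luteolin libraries.

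The rest of the family was nearly silent, as was F13b, and none of these 5 genes passed the filter. Tgm7, which lies next to Tgm5 on chromosome 2, was at 0 in the controls and had 4, 562 and 0 counts in the treated libraries. It was at least 37.2-fold higher in luteolin replicate 2 than the limit of 12 units. Epb42, the catalytically inactive member of the red cell membrane and the other neighbour of Tgm5, had at most 8 counts in any library. Tgm4 of the prostate had 4 to 24 counts, Tgm6 at most 6, and F13b, the carrier subunit of factor XIII, 0 in all 6 libraries.

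Many substrates of the epidermal enzymes were highest in luteolin replicate 2, as were the enzymes. Genes were called at the threshold of the study, an unadjusted p under 0.05 in edgeR's quasi-likelihood test with an absolute log2 fold change over 1, which 11.3% of tested genes met in the higher direction and 1.52% in the lower. Of 19 cornified envelope genes 10 were tested, and 5 of these were called higher and 0 lower, with 0 at an adjusted p under 0.05 (edgeR, against 5 at an unadjusted p under 0.05, and 6 adjusted calls with DESeq2 and 1 with voom). Over all tested genes 1.34% were higher and 0.187% lower at that adjusted level. Of the 10, 3 had controls at or under the limit of 12 units and passed the filter through the luteolin group alone, and of the other 7 genes 2 were called higher. The median log2 fold change of the 10 was 2.82 and that of the other 7 was 1.80, against -0.01 over all tested genes. Without luteolin replicate 2 the median of the 10 was 0.80. In 11 of the 19 genes all control libraries were at 0. One of them, Lor (loricrin, the main protein of the envelope, chosen after its values were seen), had 337, 26474 and 0 counts in the treated libraries. The most abundant tested genes were Krt10, Krt1 and Evpl. Krt10, a keratin of the layers above the basal one, had 3.80 ± 0.534 CPM without luteolin and 61.1, 2010 and 4.26 CPM with it. Krt1, its partner keratin, was at 0 in all control libraries and had 72.8, 1470 and 0.861 CPM with luteolin. It was at least 2850-fold higher on average, and at least 203-fold without luteolin replicate 2. Evpl (envoplakin, the scaffold of the envelope) had 64.9 ± 10.5 CPM in the controls and 44.1, 127 and 28.6 CPM in the treated libraries, so that 2 of these lay below all controls. Its log2 fold change was 0.04 (edgeR adjusted p = 0.981) and -0.82 without luteolin replicate 2. Ivl and Ppl (involucrin and periplakin, further envelope proteins, chosen after their values were seen) likewise lay below all controls in luteolin replicates 1 and 3. Ivl had 13.7, 9.31 and 12.4 CPM in the controls and 5.22, 53.3 and 4.40 CPM with luteolin, and without luteolin replicate 2 it was the 1 gene of the list called lower (log2 fold change -1.28).

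Genes of the lipid layer bound to that envelope, which share with Tgm1 a role in inherited ichthyosis, were highest in luteolin replicate 2 as well. Their summed level was 78.2 to 109 CPM in the controls and 114, 678 and 84.9 CPM with luteolin. Of 9 tested genes 6 were called higher and 0 lower, beside 11.3% and 1.52% over all tested genes. From edgeR 0 were higher at an adjusted p under 0.05, beside 1.34% over all tested genes. There were 4 such calls with DESeq2 and 2 with voom, and 6 genes had an unadjusted p under 0.05 from edgeR. The median log2 fold change was 4.14, and 1.14 without luteolin replicate 2. Of the 9, 3 had controls at or under the limit and passed the filter through the luteolin group alone. Of the other 6 genes 3 were called higher, with a median log2 fold change of 2.89. Abca12, a lipid transporter, had 33.9 ± 52.1 CPM in the luteolin group (SD, n = 3) and 0.0258 ± 0.0448 in the control group. Elovl4, which makes very long fatty acids, was at 0 in all control libraries and had 10.4, 250 and 2.44 CPM with luteolin, at least 484-fold higher on average and at least 35.5-fold without luteolin replicate 2. The fatty acid transporter Slc27a4, also among the most abundant, had 93.9 ± 29.7 against 80.1 ± 16.6 CPM (log2 fold change 0.23, edgeR adjusted p = 0.688, and -0.05 without luteolin replicate 2). Of the 11 genes listed for the hair follicle, 10 are in the table and 2 passed the filter, Padi3 and S100a3, neither of them called. The 7 hair keratins in the table had at most 0.287 CPM in any library, and Hoxc13, a regulator of hair keratins (chosen after its values were seen), was at 0 in the controls and had 0.131, 2.18 and 0 CPM with luteolin. Of the 13 keratinocyte genes 11 were tested and 10 called higher, beside the same 11.3% over all tested genes. From edgeR 0 were higher at an adjusted p under 0.05, beside 1.34% over all tested genes (7 with DESeq2 and 1 with voom, and 10 at an unadjusted p under 0.05). Of these 11, 6 passed the filter through the luteolin group alone, and of the other 5 genes 4 were called. With voom, or with at least 10 counts in every library, 2 keratinocyte genes were called.

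For the partners of Tgm2 outside the cell, of 14 tested genes 1 was called higher and 0 lower, beside 11.3% and 1.52% over all tested genes, with a median log2 fold change of 0.10. That gene, named after its values were seen, was Itgb3, the integrin beta 3 chain, to which Tgm2 can bind. It had 7.50, 8.53 and 8.58 CPM in the controls and 23.4, 22.0 and 17.1 CPM in the treated libraries, a log2 fold change of 1.35 (standard error 0.22, edgeR adjusted p = 0.0437). Fn1 (fibronectin, a main binding partner and substrate of Tgm2) was the most abundant, with 16100 ± 2980 CPM without and 12200 ± 3910 with luteolin, a log2 fold change of -0.40 (edgeR adjusted p = 0.426). Spp1 (osteopontin, a substrate) had 2330 ± 190 and 1220 ± 394 CPM, with a log2 fold change of -0.93 (edgeR adjusted p = 0.101). Vim (vimentin) had 2020 ± 96.7 and 2430 ± 276 CPM, with a log2 fold change of 0.26 (edgeR adjusted p = 0.322). At an adjusted p under 0.05, 1 partner was higher and 0 lower with edgeR, beside 1.34% and 0.187% over all tested genes. With DESeq2 these were 1 and 1, and with voom 4 and 1.

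In the retinoid pathway 7 of 15 tested genes were called higher and 1 lower, beside 11.3% and 1.52% over all tested genes. The median log2 fold change was 0.50. Of the 15, 1 (Crabp1) had controls at or under the limit and passed the filter through the luteolin group alone. Of the other 14 genes 6 were called higher and 1 lower, with a median of 0.37. The receptors Rarg and Rxrb, among the most abundant genes of the list, were not called (log2 fold changes 0.22 and -0.07). At an adjusted p under 0.05 from edgeR stood Cyp26b1 and Crabp1, which like Stra6 were chosen after their values were seen. Crabp1 entered the test only by its luteolin values, so nothing is read from its p value. Cyp26b1, an enzyme that breaks down retinoic acid, had 2.35, 3.49 and 3.32 CPM in the controls and 43.2, 76.5 and 18.5 CPM in the treated libraries. Its log2 fold change was 3.92 (standard error 0.54, edgeR adjusted p = 0.0332). Crabp1, a binding protein of retinoic acid, was at 0 in all control libraries and had 328, 665 and 155 counts in the luteolin libraries, at least 29.0-fold higher on average (edgeR adjusted p = 0.0331). The gene called lower, Stra6, a retinol transporter, had 4.53 ± 0.991 CPM without and 1.21 ± 0.428 CPM with luteolin (log2 fold change -1.91, edgeR adjusted p = 0.0815). Without luteolin replicate 2 the list held 5 genes called higher and 1 lower. At an adjusted p under 0.05, 2 were higher and 0 lower with edgeR, beside 1.34% and 0.187% over all tested genes. With DESeq2 these were 7 and 1, and with voom 6 and 1.

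Among the genes of the fibrin clot, the setting in which F13a1 works, 3 of 14 tested genes were called higher and 0 lower, with a median log2 fold change of 1.48. Over all tested genes 11.3% were called higher and 1.52% lower. Plau, the urokinase gene, had 88.4 ± 13.3 CPM without and 167 ± 37.7 CPM with luteolin, and F10 (coagulation factor X) 29.8 ± 1.60 and 56.7 ± 17.8 CPM, with log2 fold changes of 0.92 and 0.93 short of the threshold. Fga, a fibrinogen chain (chosen after its values were seen), had 0 to 104 counts in the control libraries and 58 to 290 in the luteolin libraries. Like Alb, it was highest in control replicate 2 among the controls and in luteolin replicate 1 among the treated libraries, as were Fgb, Fgg, F2 and Plg, clotting genes of the liver (also chosen after their values were seen) with log2 fold changes of 1.64, 1.54, 1.65 and 2.45. None of these 5 was called, all lie above the list median, and the part of liver RNA in that median was not tested.

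Markers of the cells known to express Tgm2 and F13a1 were set beside them. The counts of markers called stand beside 11.3% called higher and 1.52% lower over all tested genes. The summed level of 13 macrophage genes was 1110 to 1280 CPM in the control libraries and 1860, 2650 and 2000 CPM in luteolin replicates 1, 2 and 3, with 4 of 13 called higher. The 11 endothelial genes summed to 177 to 196 CPM and to 291, 404 and 224 CPM, with 3 called higher, and the 8 fibroblast genes to 1440 to 1600 CPM and to 4140, 5110 and 2080 CPM, with 5 called higher. Endothelial calls were 1 without luteolin replicate 2 or with voom and 5 without luteolin replicate 3. Of 10 tested liver genes 1 was called higher, and 6 without control replicate 2. No treated library overlapped the controls in the macrophage, endothelial and fibroblast sums, which stood at 1.57, 2.23 and 1.69 times the control mean for macrophages, 1.59, 2.20 and 1.22 times for endothelium and 2.72, 3.35 and 1.36 times for fibroblasts. Tgm2, at 3.69 to 4.31 times, was above each of these sums in every luteolin library. Single genes differed from their sums, and those named here were chosen after their values were seen. The fibroblast gene Dcn stood at 17.0, 21.5 and 4.44 times and Thy1 at 3.27, 6.47 and 2.85 times the control mean. Fap of the same list went the other way (log2 fold change -0.36). It had 1.20, 4.80 and 10.8 CPM in the controls and 5.19, 2.70 and 5.16 CPM with luteolin. Lum had 5.43 CPM in luteolin replicate 3, below its highest control (5.99 CPM). In luteolin replicate 3, 4 of the 11 endothelial genes were below every control. The part of these cells in the level of Tgm2 was not tested. Of the 6 monocyte genes 2 were called higher, and their sum was 202 to 359 CPM in the control and 268 to 843 CPM in the luteolin libraries. Without Chil3, which had 580 CPM in luteolin replicate 3, it was 192 to 320 and 262 to 315 CPM. The most abundant macrophage genes C1qa, C1qc and Mrc1 had log2 fold changes of 0.80, 0.91 and 0.74, and the fibroblast collagens Col1a1, Col1a2 and Col3a1 1.41, 1.06 and 1.23. Platelet genes summed to 14.8 to 21.1 and 22.6 to 43.6 CPM, with 1 of 5 tested genes called (Pf4) and Gp6 at 0 in all libraries. F13a1 had 0.62 times its control mean in luteolin replicate 2, where the macrophage sum was highest. Single genes were mixed there. In luteolin replicates 1, 2 and 3, C1qa had 241, 502 and 362 CPM, C1qc 248, 534 and 300, and Mrc1 385, 205 and 414. The most abundant monocyte genes were Chil3 (14.3, 5.89 and 580 CPM), Vcan (136, 59.6 and 124) and Ace (46.2, 46.8 and 29.1). The part of these cells in the level of F13a1 was not tested.

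**Figure D4:**
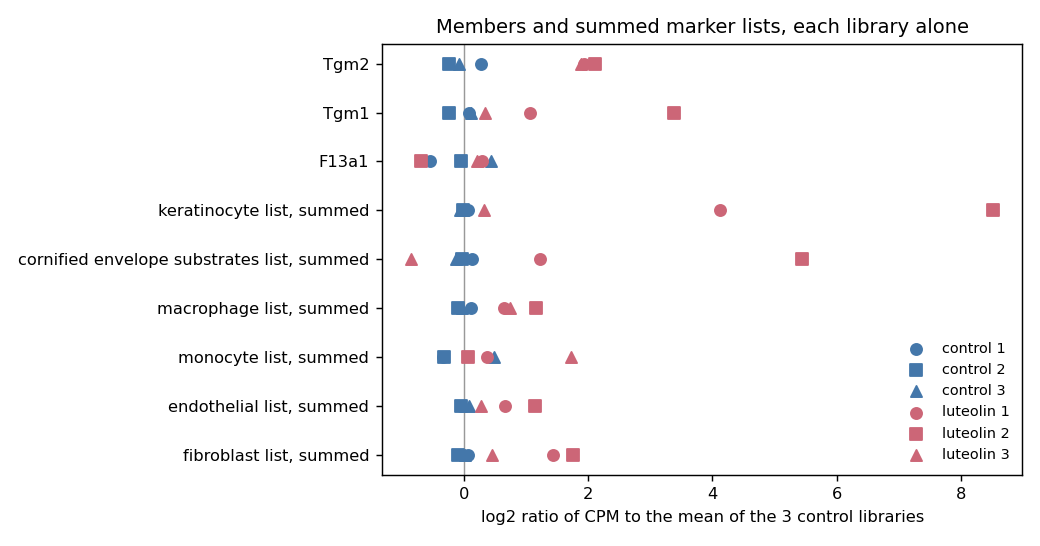
Log2 ratio of CPM to the mean of the 3 control libraries (x axis) for Tgm2, Tgm1, F13a1 and the summed level of 6 gene lists, with control libraries in blue and luteolin libraries in red, and the marker shape giving the replicate. Tgm2 lies between 1.88 and 2.11 in all luteolin libraries, whereas Tgm1 spreads from 0.34 to 3.38 in the order of the keratinocyte list, which spreads from 0.32 to 8.52.

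The genes most like each member were found by the root mean square difference of log2 CPM profiles over the 6 libraries, each centred on its own mean, among 13272 tested genes with at least 1 CPM. For Tgm2 these were Fam20a, Gbgt1 and Hoxc6, with differences of 0.0997, 0.125 and 0.169 against a median of 1.08 over the genes compared. For Tgm1 they were Prrg4, 2900026A02Rik and Slc4a8 (0.096, 0.177 and 0.190, median 1.26). For F13a1 they were Eif4a2, Zmpste24 and Eif4e (0.0596, 0.0596 and 0.0617, median 0.552), whose levels were also lowest in control replicate 1 and luteolin replicate 2.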

How the data were processed

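RNA-seq was performed on 3 control and 3 luteolin tumours. The authors deposited whole-number estimated counts per gene symbol and library, not scaled between libraries. The submitters' processing notes name bcl2fastq 2.0, HISAT2, StringTie and DESeq2 and the builds mm39 and rn6, without roles. Multiples of 4 made up 44.8% of values between 1 and 40 (25% if spread evenly). The methods name Trizol and TruSeq kits, and the labels RNeasy and SMARTer kits. No column was left out.

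Counts were compared in R 4.3.3 with edgeR 4.0.16 (TMM, filterByExpr, quasi-likelihood test, Benjamini-Hochberg adjustment over 14963 genes), and tested on simulated data. Exon and coding lengths and GC content came from GENCODE M21 (GRCm38), and promoters from RefSeq. log2 CPM has a prior count of 2. The genes and lists were chosen with earlier results of these data known. Named genes were the members, the rest of the family and F13b, and the 3 most abundant tested genes of each list. Listed genes named as absent and the 3 genes most like each member with a mean of at least 1 CPM were also named. Others are said to be chosen after their values were seen. Some genes that the rule names are not reported here. Alternatives were DESeq2 1.42.0, voom of limma 3.58.1 with quality weights, RLE and upper-quartile normalization, no filter, at least 10 counts in every library, values divided by 4, the replicate number as a block, each library left out, and other lengths. The GC step was added after the data were seen.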

Additional observations from a re-analysis of the deposited data

How the results depend on the processing

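The log2 fold changes of Tgm2, Tgm1 and F13a1 moved by less than the spread between replicates under each alternative of tool, normalization, filter, count scale, block and GC content, although Tgm1 was 1.17 with voom and 1.54 with the replicate block. With 1 library left out they ranged from 1.85 to 2.11 for Tgm2, from 0.76 to 2.56 for Tgm1 and from -0.22 to 0.27 for F13a1. Tgm3 and Tgm5 were fitted with no filter, with DESeq2 and with some libraries left out, but their fold changes there depend on the prior count and are not given.

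With coding length, the level of the epidermal genes relative to Tgm2 was 2.89%, 3.41% and 3.85% in the controls and 2.20%, 15.8% and 1.14% in the treated libraries, in replicate order. With no division by length it was 17.6% in luteolin replicate 2. The order of the libraries was the same.

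Over all tested genes, 1687 were called higher and 227 lower at the p and fold change threshold, and 200 and 28 at an adjusted p under 0.05 from edgeR. The lower count was 498 with voom. The adjusted counts were 1543 and 415 with DESeq2, 1886 and 1311 with voom, 345 and 47 with at least 10 counts in every library, 327 and 46 with values divided by 4, and 34 and 1 with the replicate block. With 1 library left out the counts were 1139 to 2104 higher and 140 to 305 lower (140 without control replicate 3), and 0 to 276 and 0 to 36 at an adjusted p. They were 0 without any 1 control library or luteolin replicate 1.

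Of the cornified envelope genes, 5 were called higher, against 2 with voom, 13 with no filter and 3 with the 10-count minimum, the replicate block or values divided by 4, and 4 to 13 with 1 library left out (13 without luteolin replicate 3). The lipid envelope count of 6 was 3 with voom, 1 with the 10-count minimum or values divided by 4, and 3 to 10 with 1 library left out (3 without luteolin replicate 2, 10 without replicate 3). The count of Tgm2 partners, 1, was 2 with DESeq2, voom and the 10-count minimum, and 1 to 2 with 1 library left out (2 without luteolin replicate 1 or 3). The count of partners called lower, 0, was 1 with voom and 1 without luteolin replicate 3. The retinoid count of 7 was 4 to 7 (4 without control replicate 2). The fibrin count of 3 was 5 with voom and 2 to 6 with 1 library left out (6 without control replicate 2, 5 without luteolin replicate 2). Genes at or under the limit in all controls were then left out, a choice made after seeing the data. This left 2 envelope, 3 lipid envelope and 6 retinoid genes called higher. The cause of these shifts was not tested, beyond the fewer genes that a stricter filter leaves. Whether the replicate numbers pair the samples cannot be decided from 3 libraries per group. The correlation of deviations between same-numbered libraries was -0.196, -0.092 and 0.063, and luteolin libraries 1, 2 and 3 correlated best with controls 3, 1 and 3.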
